A study of Saccharomyces cerevisiae with 6 samples.

Results

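The 10 genes described here encode proteins that copy DNA at the replication fork of budding yeast (Saccharomyces cerevisiae). They were followed in cells labelled as depleted of the protein kinase Rio1 and in controls. The genes were chosen by systematic name, as follows: POL1, POL12, PRI1 and PRI2 for polymerase alpha-primase, POL2 for polymerase epsilon, POL30 for the sliding clamp, RFA1, RFA2 and RFA3 for replication protein A, and CDC45 for the helicase factor Cdc45. All 10 were found among the 6692 gene identifiers of the deposited count tables. The study asked which genes change when Rio1, an essential kinase needed for maturation of the small ribosomal subunit and for rDNA stability, is removed. RNA was sequenced from 3 depleted libraries, whose cells received 500 µM auxin for 1 h, and from 3 control libraries without auxin. Both groups are labelled as W303 haploid MATa cells in which RIO1-AID carries an auxin-inducible degron and PADH1-OsTIR1 supplies the plant F-box protein from the ADH1 promoter. Both also share the markers ade2-1 and trp1-1, together with can1-100, ura3-1 and mutant alleles of his3 and leu2, and exponential growth in YPD at 23 °C. The titles call the controls wild type, whereas their source field names the degron strain. No library combined auxin with untagged Rio1, so auxin itself and loss of Rio1 cannot be told apart.

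Polymerase alpha-primase starts every new DNA strand: Pri1 makes a short RNA primer, Pri2 helps to regulate and extend it, and the Pol1 catalytic subunit, bound by the regulatory subunit Pol12, lengthens it with DNA. The leading strand is then copied by polymerase epsilon, whose catalytic subunit is Pol2, behind a helicase that Cdc45 activates together with the Mcm and GINS proteins. Pol30 (PCNA) is the ring that holds polymerases on DNA, and replication protein A, made of Rfa1, Rfa2 and Rfa3, coats single-stranded DNA during replication, repair and checkpoint signalling. In yeast many of these genes are transcribed in late G1 and at the G1/S boundary by the factor MBF, which binds the MluI cell cycle box (MCB, letters ACGCGT).

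Gene counts per library ran from 683896 to 1048376 in depleted and from 788498 to 1671136 in control libraries, and the 10 genes together took 705 to 997 reads in depleted and 782 to 1596 reads in control libraries. On the first principal component of log CPM, which held 61.2% of the variance, depleted libraries lay between -23.3 and -19.6 and controls between 20.3 and 23.6. Depleted library 2 stood apart in its reads from the YLR154 reading frames inside the rDNA, which took 4.12% of its gene counts and 0.0589% to 1.48% of those of the other 5 libraries. MATa marker genes summed to 1188 to 1430 CPM in depleted and 1187 to 1372 CPM in control libraries, and the 3 markers of the other mating type, MATalpha, to 6.12 to 15.8 CPM and 1.78 to 14.4 CPM. Of 4 tested MATa genes only BAR1, whose protease degrades alpha-factor, was called, at 119 ± 11.4 CPM in depleted and 154 ± 8.10 CPM in control libraries (SD, n = 3 each; log2 fold change -0.38, edgeR adjusted p = 0.0394; not called in 8 of 15 alternative settings, 5 of them with 1 library left out). The MATalpha genes STE3, at a mean of 5.40 and 4.99 CPM in depleted and control libraries, and MF(ALPHA)2, at 4.52 and 2.78 CPM, were too low to test. The mRNA of RIO1 itself was higher in depleted cells, at 112 ± 18.1 CPM against 65.2 ± 1.87 CPM in controls (SD, n = 3 each; edgeR adjusted p = 0.00159). It does not check the depletion, because the degron acts on the protein. Across the genome 28.3% of 5195 tested genes were called (14.1% higher and 14.1% lower in depleted cells), and the groups did not overlap for 40.6%.

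Most of the stretches upstream of these genes hold the MCB element, and 5 are shown because they belong to the genes that changed and to the other subunits of replication protein A. Each holds the 250 bases before the start codon and the first 50 bases of the gene, read 5′ to 3′ on the gene's strand from the RefSeq genome of assembly R64 (the build known as sacCer3), and capitals mark the MCB and its 5-letter core ACGCG on either strand.
POL1 (chrXIV:429837-430136, plus strand): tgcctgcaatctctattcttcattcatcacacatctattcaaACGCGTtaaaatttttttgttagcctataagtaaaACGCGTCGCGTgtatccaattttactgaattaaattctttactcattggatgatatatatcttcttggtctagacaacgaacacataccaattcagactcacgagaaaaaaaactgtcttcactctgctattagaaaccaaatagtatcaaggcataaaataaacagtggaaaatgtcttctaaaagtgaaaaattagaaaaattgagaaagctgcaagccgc
POL12 (chrII:153561-153860, minus strand): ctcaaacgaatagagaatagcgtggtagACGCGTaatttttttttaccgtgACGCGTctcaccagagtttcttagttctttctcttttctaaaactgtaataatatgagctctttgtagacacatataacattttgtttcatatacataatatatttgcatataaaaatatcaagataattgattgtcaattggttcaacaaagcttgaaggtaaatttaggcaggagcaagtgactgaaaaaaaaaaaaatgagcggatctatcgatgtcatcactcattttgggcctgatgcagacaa
RFA1 (chrI:158570-158869, minus strand): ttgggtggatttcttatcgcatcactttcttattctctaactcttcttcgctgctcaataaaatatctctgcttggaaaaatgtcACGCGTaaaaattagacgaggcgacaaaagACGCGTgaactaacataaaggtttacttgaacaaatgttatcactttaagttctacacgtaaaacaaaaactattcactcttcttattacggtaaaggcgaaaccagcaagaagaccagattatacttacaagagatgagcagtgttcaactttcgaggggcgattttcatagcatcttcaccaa
RFA2 (chrXIV:48037-48336, plus strand): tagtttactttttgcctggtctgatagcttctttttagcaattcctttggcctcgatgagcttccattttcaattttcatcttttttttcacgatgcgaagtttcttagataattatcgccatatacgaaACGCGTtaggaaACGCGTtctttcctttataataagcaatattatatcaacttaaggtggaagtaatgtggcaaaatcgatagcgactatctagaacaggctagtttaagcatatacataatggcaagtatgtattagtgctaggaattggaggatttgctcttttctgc
RFA3 (chrX:96480-96779, minus strand): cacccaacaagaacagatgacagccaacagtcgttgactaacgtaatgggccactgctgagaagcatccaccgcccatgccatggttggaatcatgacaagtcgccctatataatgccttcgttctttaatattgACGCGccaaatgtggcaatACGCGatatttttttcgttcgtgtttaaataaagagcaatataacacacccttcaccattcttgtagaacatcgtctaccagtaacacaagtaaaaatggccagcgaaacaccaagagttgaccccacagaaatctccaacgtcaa
POL1 and POL12 each carry 2 MCBs in this window, as do RFA1 and RFA2, whereas RFA3 carries 2 copies of the core and no complete MCB.

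Across the 10 genes, 8 windows held at least 1 MCB and 9 held the core, against 3.06% and 14.0% of 6007 protein-coding gene windows of the same 300 bases. CDC45 had 2 MCBs, and PRI2, POL2 and POL30 had 1 each. In PRI1, the primase catalytic subunit gene, neither the MCB nor its core occurs in these letters. The first base of the MCBs lay between 222 and 108 bases before the start codon, at positions -222 (POL12) to -108 (RFA2). The SCB element, bound by the sister factor SBF and searched as CACGAAA, was in none of the 10 windows and in 4.20% of all windows, and its variant CGCGAAA was in POL30 alone among the 10 and in 3.60% of all windows. The URS1 core GCCGCC (5.14% of windows) and GGTGGCA, the start of the proteasome gene element bound by Rpn4 (2.88%), occurred in none of the 10. All motifs were searched on both strands, the MCB overlaps its own core, and a match describes letters and not a bound site.

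**Figure D1:**
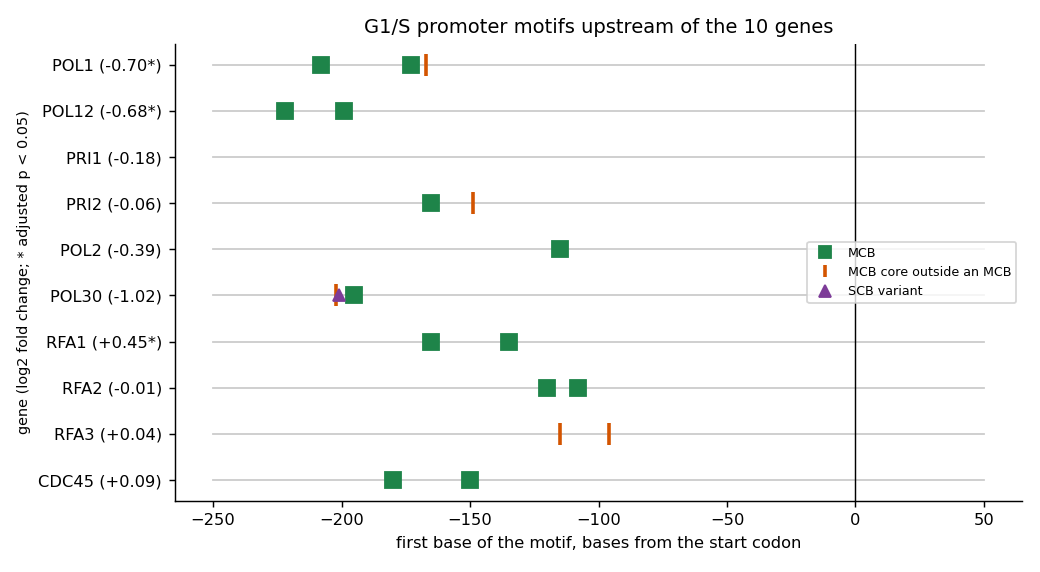
Position of the MCB, of its core outside a complete MCB and of the SCB variant in the window from 250 bases before to 50 bases after the start of each coding sequence, with each gene's log2 fold change (depleted over control) beside its name. Windows with 2 MCBs belong to POL1 and POL12, which were lower, to RFA1, which was higher, and to RFA2 and CDC45, which were not called.

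Of the 10 genes, 2 fell, 1 rose and 7 did not pass the test. All 10 passed the filter on low counts. The genes that fell, POL1 and POL12, are the 2 polymerase subunits of polymerase alpha-primase, and the gene that rose, RFA1, encodes the large subunit of replication protein A. A called share of 3 in 10 lies close to the 28.3% called among all tested genes, and the 4 genes whose groups did not overlap (POL1, POL12, POL2 and RFA1) compare with 40.6%, so neither count sets the 10 genes apart. Their median log2 fold change was -0.12, beside 0.01 for all tested genes. Their summed share of gene counts was 0.103%, 0.0951% and 0.102% in depleted and 0.0992%, 0.0918% and 0.0955% in control libraries 1 to 3, which overlap (exact two-sided permutation p = 0.3, where 0.1 is the smallest possible). This share is of library totals without TMM scaling, unlike the CPM and fold changes given here. The TMM factors were 1.096 to 1.128 in depleted and 0.8861 to 0.9075 in control libraries. The share therefore does not show that the sum was level on the TMM scale.

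POL1 (YNL102W, chrXIV:430087-434493, plus strand) had 171, 177 and 159 CPM in depleted libraries 1 to 3, against 289, 289 and 253 CPM in control libraries 1 to 3. Every depleted library lay below every control, by a wide gap. POL1 thus fell 1.63-fold, with a log2 fold change of -0.70 ± 0.11 (SE, n = 3 per group) and an edgeR adjusted p of 0.000106. These values rest on 131 to 203 reads in depleted and 201 to 377 reads in control libraries. POL1 stayed called under each of the 15 alternatives, with log2 fold changes between -0.78 and -0.39, the smallest with library totals only.

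POL12 (YBL035C, chrII:151493-153610, minus strand), whose product is the regulatory subunit bound to Pol1, had 61.2, 50.7 and 66.3 CPM in depleted libraries 1 to 3, against 91.9, 111 and 82.6 CPM in control libraries 1 to 3. The groups again did not overlap. POL12 fell 1.60-fold (log2 fold change -0.68 ± 0.18, SE, n = 3 per group; edgeR adjusted p = 0.00853). Its call was lost without control library 2, its highest library (edgeR adjusted p = 0.0553), and with library totals only (0.125), within a range of 0.00440 to 0.125 over its alternatives. The ratio of POL1 to POL12 reads per kilobase of coding sequence was 1.34, 1.68 and 1.15 in depleted libraries and 1.51, 1.25 and 1.47 in control libraries, so the groups overlapped in this ratio.

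The 2 primase genes did not pass the test. PRI1 (YIR008C, chrIX:373077-374306, minus strand) had 37.6 to 44.5 CPM in depleted and 35.6 to 54.6 CPM in control libraries, and PRI2 (YKL045W, chrXI:353493-355079, plus strand) had 43.0 to 52.5 CPM and 45.3 to 56.4 CPM. Their log2 fold changes were -0.18 ± 0.23 and -0.06 ± 0.21 (SE), with 95% intervals from -0.67 to 0.31 for PRI1 and from -0.50 to 0.37 for PRI2, so falls nearly as large as that of POL12 could not be told from no change for PRI1. Both signs turned positive with library totals only (0.13 and 0.25), and neither gene was called there. The ratio of POL1 to PRI1 reads per kilobase, which does not depend on scaling between libraries, was 1.14, 1.32 and 0.999 in depleted libraries and 1.48, 1.51 and 1.99 in control libraries. All depleted values of this ratio lay below all control values. It holds the called gene POL1, so it is not separate evidence, and it rests on 32 to 60 PRI1 reads per library. PRI1 to PRI2 stood at 1.25, 1.01 and 1.10 in depleted and 1.49, 1.52 and 0.814 in control libraries, which overlap.

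**Figure D2:**
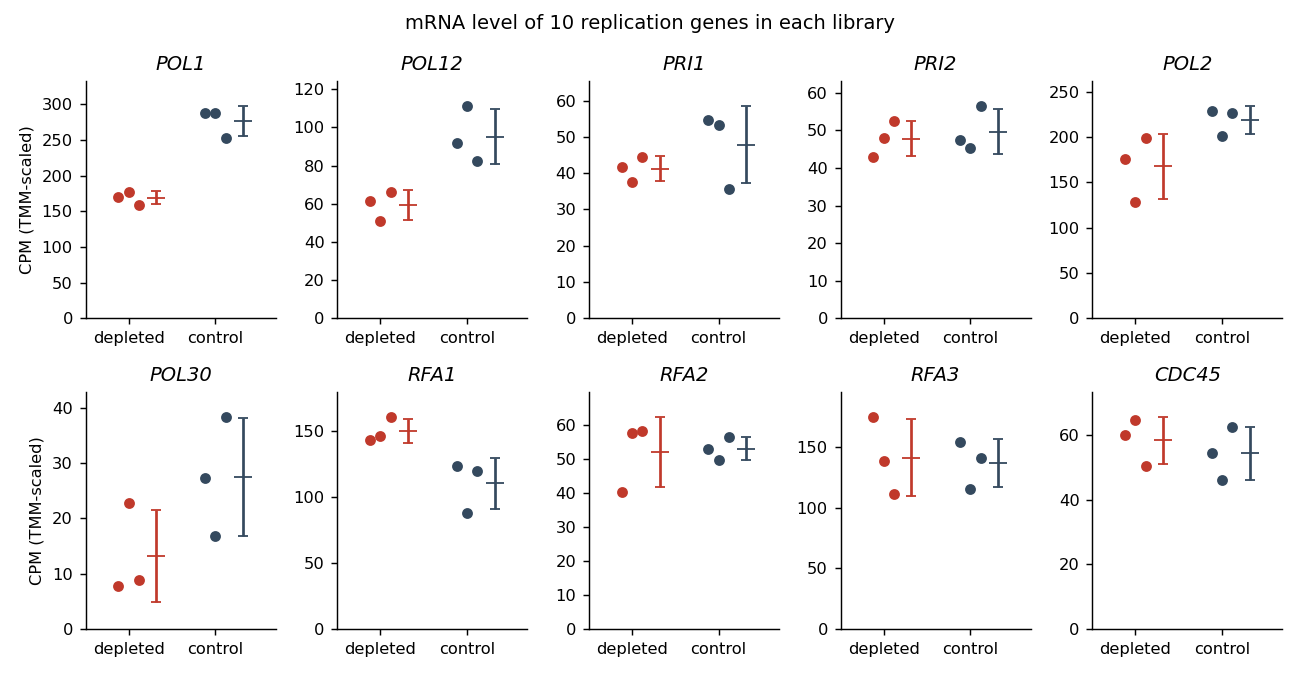
TMM-scaled CPM of each gene in the 3 depleted (left, red) and 3 control (right, dark) libraries, one point per library, with the mean and SD of each group beside the points; each vertical axis starts at 0. POL1, POL12 and POL2 lie lower and RFA1 higher in every depleted library than in any control, and the other 6 genes overlap.

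POL2 (YNL262W, chrXIV:148212-154880, plus strand), the catalytic subunit gene of polymerase epsilon, had 176, 128 and 199 CPM in depleted libraries 1 to 3, against 228, 201 and 226 CPM in control libraries 1 to 3. The groups did not overlap, but depleted library 3 and control library 2 were nearly level. Its log2 fold change of -0.39 ± 0.14 (SE, n = 3 per group) missed the threshold with an edgeR adjusted p of 0.0516. It was called lower under 7 of the 15 alternatives, with adjusted p-values from 0.00779 to 0.737 over all of them, so its side of the threshold is not settled. With library totals only its value was -0.07. POL1 to POL2 reads per kilobase stood at 1.47, 2.09 and 1.21 in depleted and 1.91, 2.18 and 1.69 in control libraries, which overlap.

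POL30 (YBR088C, chrII:424990-425766, minus strand), the PCNA gene, was covered by few reads: 6, 26 and 9 in depleted libraries 1 to 3, against 19, 19 and 57 in control libraries 1 to 3. In CPM this was 7.81, 22.7 and 8.91 in depleted and 27.3, 16.9 and 38.3 in control libraries, and the groups overlapped through depleted library 2. The log2 fold change was -1.02 ± 0.40 (SE), with a 95% interval from -1.85 to -0.18. With an edgeR adjusted p of 0.0637, no change was called at these read counts. Without depleted library 2 the value was -1.72 (edgeR adjusted p = 0.0103), and without control library 3 it was -0.64 (0.370), which is the range over the alternatives for both value and p. A reading frame listed in the files and not in the R64 table, YBR089W, follows POL30 in systematic order on the opposite strand and had at most 1 read in any library. Its coordinates were not used here, so whether reads shared with it are missing from the POL30 row was not tested.

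RFA1 (YAR007C, chrI:156754-158619, minus strand), whose product holds most of the DNA-binding domains of the complex, had 143, 146 and 160 CPM in depleted libraries 1 to 3, against 123, 87.9 and 119 CPM in control libraries 1 to 3. All depleted libraries were higher than all controls, and control library 2 was the lowest by a clear margin. RFA1 rose 1.37-fold (log2 fold change 0.45 ± 0.15, SE, n = 3 per group; edgeR adjusted p = 0.0293). The call was lost without control library 2 (log2 fold change 0.29, edgeR adjusted p = 0.216), without depleted library 3 (0.40, edgeR adjusted p = 0.0828) and in DESeq2 (0.43, adjusted p = 0.104), and its adjusted p ranged from 0.000428 to 0.216 over the alternatives.

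The other 2 subunits of replication protein A did not pass the test. RFA2 (YNL312W, chrXIV:48287-49216, plus strand, the only one of the 10 genes with an intron) had 40.4, 57.7 and 58.4 CPM in depleted libraries 1 to 3, against 53.1, 49.7 and 56.4 CPM in control libraries 1 to 3. RFA3 (YJL173C, chrX:96161-96529, minus strand) had 174, 138 and 111 CPM in depleted and 154, 115 and 141 CPM in control libraries. Their groups overlapped, and their log2 fold changes were -0.01 ± 0.21 and 0.04 ± 0.16 (SE), with 95% intervals from -0.44 to 0.42 and from -0.30 to 0.38. With library totals only RFA1, RFA2 and RFA3 stood at 0.77, 0.30 and 0.36, where RFA1 alone of the 3 was called.

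Within each library, RFA1 had 1.56, 1.11 and 1.21 times the reads per kilobase of RFA2 in depleted libraries, against 1.02, 0.779 and 0.933 times in control libraries. All 3 depleted ratios were above all 3 control ratios, with depleted library 2 and control library 1 closest. This ratio holds the called gene RFA1, so it is not separate evidence, and it rests on 31 to 84 RFA2 reads per library. RFA1 to RFA3 stood at 0.162, 0.209 and 0.286 in depleted and 0.159, 0.151 and 0.168 in control libraries, where depleted library 1 falls inside the control range. RFA2 to RFA3 overlapped, with means of 0.176 in both groups. These ratios and those with POL1 or PRI1 were described without a test. How often ratios of other gene pairs separate the groups was not measured, and for single tested genes the share was 40.6%.

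**Figure D3:**
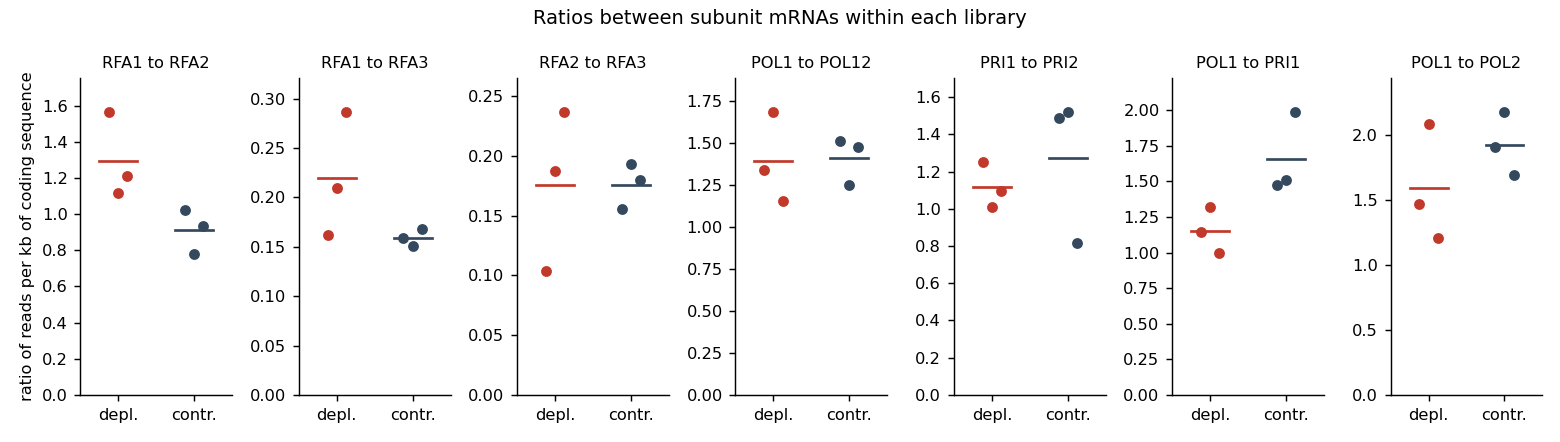
Ratio of reads per kilobase of coding sequence between pairs of subunit mRNAs in each depleted (left, red) and control (right, dark) library, with group means as bars; each vertical axis starts at 0. Groups are apart for RFA1 to RFA2 (means 1.30 and 0.912) and for POL1 to PRI1 (means 1.15 and 1.66), and overlap in the other 5.

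CDC45 (YLR103C, chrXII:343989-345941, minus strand), whose product joins the Mcm ring when an origin fires, had 59.9, 64.7 and 50.5 CPM in depleted libraries 1 to 3, against 54.6, 46.2 and 62.4 CPM in control libraries 1 to 3. The groups overlapped, and the log2 fold change was 0.09 ± 0.20 (SE; 95% interval -0.33 to 0.52; edgeR adjusted p = 0.777). It has 2 MCBs, as POL1 and RFA1 do.

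Per kilobase of coding sequence, RFA3 was the most abundant of the 10 mRNAs, at 382 ± 86.4 CPM per kb in depleted and 370 ± 52.7 CPM per kb in control libraries (SD, n = 3 each), and no other gene's range reached it in either group. RFA3 also has the shortest coding sequence of the 10, at 369 bases. Whether reads were counted beyond coding sequences was not given, and such reads would raise the value of a short gene most. In depleted libraries RFA1 followed at 80.3, RFA2 at 63.4 and POL1 at 38.4 CPM per kb, and these 4 levels did not overlap from one to the next. From POL1 downward each gene overlapped the next, in the order PRI1, PRI2, CDC45, POL12, POL2 and POL30, the last at 16.9 ± 10.7 CPM per kb. The place of POL30 rests on 6 to 26 reads per depleted library, and whether reads are missing from its row was not tested. In control libraries RFA2, POL1 and RFA1 stood at 64.6, 62.8 and 59.1 CPM per kb and each overlapped the next. They were followed by POL12, PRI1, POL30, POL2, PRI2 and CDC45, again with overlap at each step, down to 27.8 ± 4.17 CPM per kb. Relative to all tested genes with a coding length, POL1 lay at percentile 34.3 in depleted and 54.5 in control libraries, and RFA1 at percentile 62.8 in depleted and 52.6 in control libraries.

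The other genes of DNA replication moved in both directions and mostly did not pass the test. Of 51 genes in 8 lists (polymerase delta, the accessory subunits of polymerase epsilon, clamp loaders, Okazaki fragment maturation, GINS and origin firing, fork protection, topoisomerases and origin licensing), 4 were higher, 6 lower and 41 not called, with a median log2 fold change of -0.02. Among all tested genes 14.1% were called in each direction, and with library totals only 14 were higher and 0 lower (0 also at an unadjusted edgeR p under 0.05). Of 3 polymerase delta genes and 3 accessory subunit genes of polymerase epsilon 0 were called by edgeR and 0 by DESeq2, and 0 had an unadjusted p under 0.05 in either, including POL3 (0.10), POL32 (-0.28), DPB2 (0.19) and DPB4 (-0.00057). With library totals only 2 of these 6 were higher. All 3 polymerase delta genes have an MCB in their window.

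The largest called rise of the 51 was in TAH11, the Cdt1 gene that loads the Mcm ring, at 247 ± 13.6 CPM in depleted against 111 ± 9.99 CPM in control libraries (SD, n = 3 each; log2 fold change 1.15, edgeR adjusted p = 6.848e-07). SLD5, a GINS subunit that works beside Cdc45, rose by 0.87 on the log2 scale, the origin recognition subunit gene ORC5 by 0.70 and DNA2, a nuclease that trims Okazaki fragments coated with replication protein A, by 0.67. Genes that fell were the alternative clamp loader genes ELG1 (-0.82) and CTF18 (-0.62), CTF4 (-0.61), whose product ties polymerase alpha to the helicase, the topoisomerase genes TOP2 (-0.51) and TOP1 (-0.48), and MCM7 (-0.36). With library totals only none of these 6 was called lower. The calls of TAH11 and DNA2 held in each of 15 alternative settings, and those of TOP2 and CTF4 in 14 and 13. SLD5, ORC5, CTF18 and TOP1 were called in 10 each and not in DESeq2. ELG1 and MCM7 stood at the threshold, with edgeR adjusted p of 0.0495 and 0.0494 and groups that overlapped, and were called in 6 and 7 settings. With 1 library left out, 0 (without depleted library 3) or 1 clamp loader gene was lower, and MCM7 was not called without depleted library 1 or 2 or control library 2 or 3.

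Beside RFA1, 3 of 6 genes that work with replication protein A in repair were higher and none lower, with a median of 0.60. Among all tested genes 14.1% were higher. This list, like the others, was chosen with earlier results of these data known, so these shares are given as a description. RAD52, which loads the recombinase onto coated single strands, stood at 331 ± 14.7 CPM in depleted and 132 ± 15.3 CPM in control libraries (log2 fold change 1.33, edgeR adjusted p = 5.692e-08). Its paralog RAD59 had a log2 fold change of 1.499, on 4 to 17 reads per library, and the helicase gene SGS1 one of 0.50. RAD59 was not called in DESeq2 or without control library 3. In the S-phase checkpoint list only MEC1, the kinase recruited by replication protein A, was called, higher by 0.40, of 10 genes. MEC1 was not called in DESeq2 or without depleted library 1 or any 1 control library, and without depleted library 2 the list held 2 higher genes. Ribonucleotide reductase genes went both ways: of 5 tested, RNR3, the damage-inducible large subunit, was higher (1.59, on 2 to 16 reads per library), and RNR1 (-0.57) and RNR2 (-0.46) were lower. RNR3 was not called in DESeq2 or without control library 2, and RNR2 was not called in DESeq2 or without depleted library 1 or 2 or control library 1 or 3. RNR1 lost its call only with library totals.

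**Figure D4:**
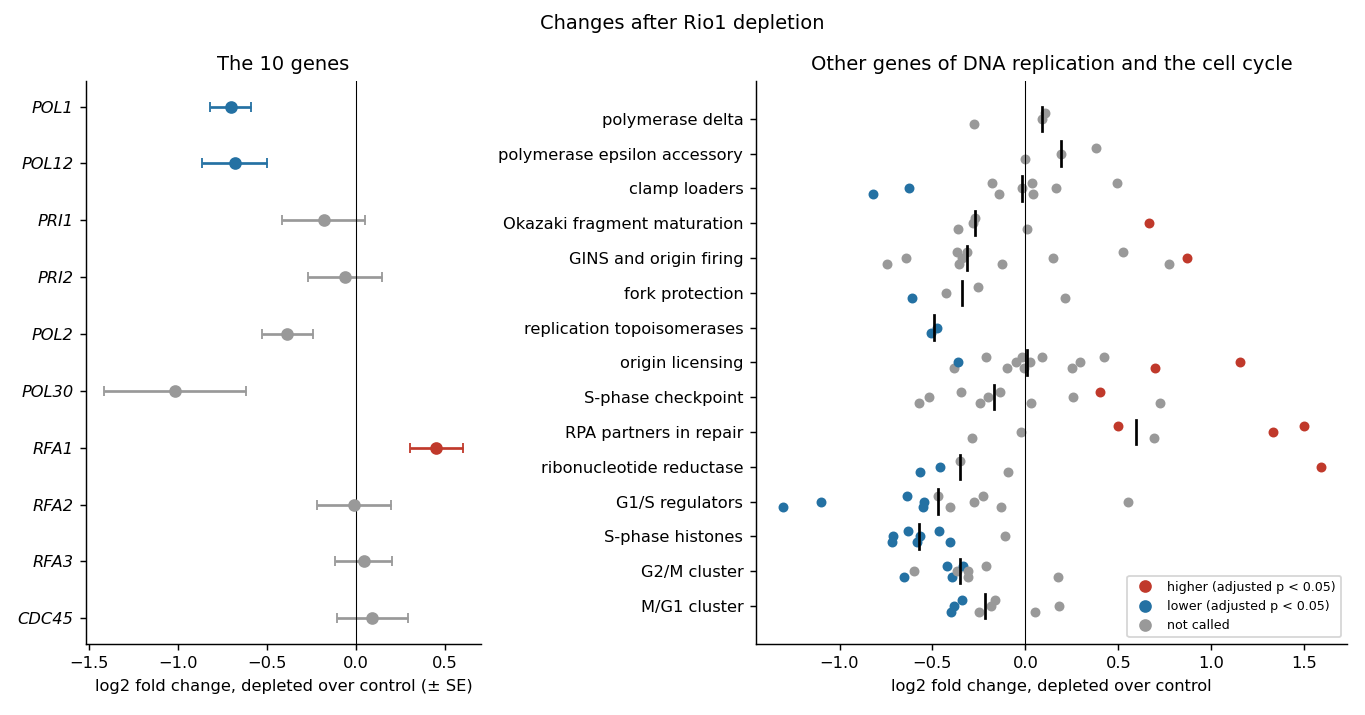
Log2 fold change (depleted over control) of the 10 genes with its SE (left) and of every tested gene on the lists of other replication and cell cycle genes (right), coloured by call at an adjusted p under 0.05, with list medians as black bars. POL1 and POL12 are lower and RFA1 higher, while the lists of G1/S regulators and S-phase histones have medians of -0.47 and -0.57.

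On 4 cell cycle lists every called gene was lower, while 14.1% of all tested genes were called lower. Not called were 6 of the G1/S, 1 of the histone, 6 of the G2/M and 5 of the M/G1 genes. Whether these lists moved with POL1 and POL12 was not tested. Of 11 G1/S regulators 5 were lower and none higher, with a median of -0.47, among them the G1 cyclin genes CLN2 (-1.30) and CLN1 (-1.10), the MBF corepressor gene NRM1 (-0.64) and the SBF subunit gene SWI4 (-0.55). Of 8 S-phase histone genes 7 were lower, with a median of -0.57, led by HHF2 (-0.72), HHT2 (-0.71), HHF1 (-0.63) and HHT1 (-0.58), whose near-identical copies make single values uncertain. In the G2/M list 4 of 10 were lower (CLB2 -0.65, BUD4 -0.42, CHS2 -0.40 and CDC5 -0.33), and in the M/G1 list 3 of 8 (DSE2 -0.40, CTS1 -0.39 and EGT2 -0.34). With library totals only 2 genes each of the G1/S and histone lists were lower, none of G2/M or M/G1, and the medians of the 4 lists were -0.16, -0.26, -0.04 and 0.10. With 1 library left out the M/G1 count ran from 0 (without depleted library 1 or 2) to 3 and was 1 without control library 1 or 3, and the G2/M count ran from 2 (without depleted library 3) to 5. In the same omissions 4 to 5 G1/S and 6 to 7 histone genes were lower. NRM1 was called in 8 of 15 alternative settings, CDC5 in 7 and DSE2 in 6, and none of these in DESeq2. EGT2 was called in 9, CHS2 in 10 and CTS1 in 11, and the other genes named from these lists in 14 or 15. The part of cell cycle position in the values of the 10 genes was not tested, and in bulk RNA fewer cells in a phase and less RNA per cell cannot be told apart.

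Among all other genes with an MCB in the window, 31 of 163 tested were lower and 14 higher (19.0% and 8.59%), with a median log2 fold change of -0.19. Genes without one were lower in 14.0% and higher in 14.5% of 4932, with a median of 0.02. When library totals alone set the scale, the medians were 0.13 with an MCB and 0.33 without, 4.29% and 5.92% were lower, and 22.1% and 34.7% were higher. Among the 8 genes of the set with an MCB, 2 were lower, 1 was higher and 5 were not called, so the element was found with each outcome.

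The genes whose log2 CPM followed a called gene most closely over the 6 libraries were found by Pearson correlation among 5139 genes whose mean was 10 CPM or more. They were the ribosomal protein gene RPL23B (r = 0.999) and the pre-rRNA processing gene RRP9 (0.997) for POL1, the splicing factor gene MUD1 (0.988) and the chromatin remodeller gene RSC2 (0.985) for POL12, and the acetyltransferase subunit gene SAS5 (0.995) and the metalloreductase gene FRE2 (0.994) for RFA1. Of these 6, MUD1 and SAS5 were not called. These correlations are over 6 points that fall into 2 groups and share their scaling, and they are given as a description.

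**Figure D5:**
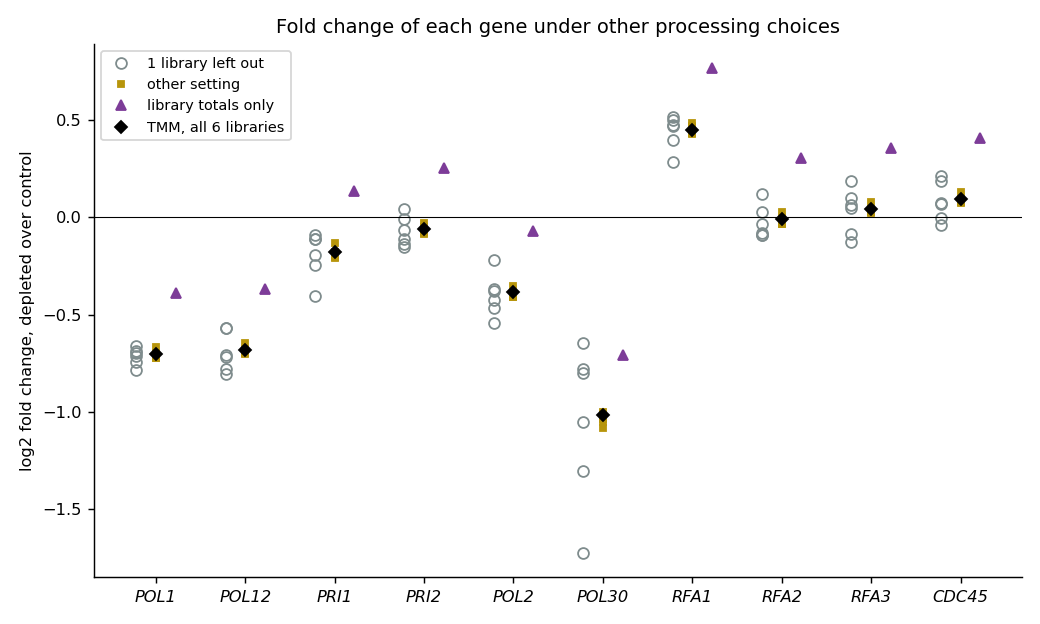
Log2 fold change (depleted over control) of each gene with TMM scaling and all 6 libraries (diamonds), with 1 library left out (circles), with library totals only (triangles) and under the other settings (squares). POL1 stays between -0.78 and -0.39 and POL30 spreads from -1.72 to -0.64, while PRI1, PRI2, RFA2, RFA3 and CDC45 have values on both sides of 0.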

How the data were processed

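Per the labels' protocols, hot phenol RNA was freed of rRNA and made into ScriptSeq libraries. The authors deposited raw read counts per gene, 1 file per library. The submitters' processing notes name TopHat2 2.0.8, HTSeq, DESeq and the sacCer3 build; the strand option and annotation were not given in the sources used here. Reads with several alignments (45.2% to 65.9% of entries) are in a summary row, and the 5 summary rows, which also hold reads outside genes (11.0% to 17.9%) and ambiguous reads (0.813% to 1.46%), were left out. All 8 R64 genes nested in an opposite-strand gene were without reads, as counting without strand would give, so antisense reads cannot be separated. None of the 10 genes overlaps another R64 gene. This check could not cover the 684 identifiers absent from R64. Among them, YBR089W lies near POL30 in systematic name, and YNL103W-A, with 5 to 34 reads per library, near POL1.

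Of 6692 identifiers, 6008 matched RefSeq R64, whose genome gave coordinates, coding lengths and upstream windows. The test was edgeR 4.0.16 in R 4.3.3 (TMM, filterByExpr with minimum count 10 and total 15, glmQLFit and glmQLFTest, Benjamini-Hochberg over 5195 genes, calls under 0.05). SE is the absolute log2 fold change over the square root of F, and 95% intervals use the t distribution. CPM uses TMM-scaled totals; before scaling, 1 read is worth 0.598 to 1.46 CPM. The 95% Wilson intervals of the 10 genes' share lie within 0.0867% to 0.111% and cover counting error only. On simulated counts for this comparison (5163 genes), 81.0% of changes of 1 and 99.0% of changes of 2 on the log2 scale were called, and 6.28% of calls were false. The called changes of the 10 genes are smaller than those simulated. Every simulated gene had the same dispersion (0.0184), and 100 and 99 tested genes were changed, against 1469 called in the data. These rates may therefore not hold for the data. Alternatives were RLE, library totals, TMM without ribosomal protein genes, omission of YLR154 rows, 2 count filters, DESeq2 1.42.0, limma-voom (limma 3.58.1), a replicate block and each library left out.

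The genes and lists were chosen with earlier results of these data known. Named were all 10 genes and RIO1; from each list, mating type markers included, up to 4 called genes with the largest change (otherwise its 2 most abundant genes); and the 2 genes most correlated with each called gene. No label names separate cultures or batches, so a p-value reflects differences among these libraries that may be technical. No 2 files were identical, and libraries of 1 group differed by more than sampling noise (chi-square per degree of freedom 2.53 to 10.7).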

Additional observations from a re-analysis of the deposited data

How the results depend on the processing

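Scaling by library totals alone raised the median log2 fold change over all genes by 0.315. In that setting 1 of the 10 genes was lower, and 14 of the 51 other replication genes were higher and 0 lower; PRI1, PRI2 and RFA2 turned positive (0.13, 0.25 and 0.30). With no count filter 4 of the 10 were lower, POL2 and POL30 being added. With a mean of at least 50 counts RFA2 was at 0.0257 and 2 replication genes were higher, and PRI1 and POL30 were not tested. DESeq2 called 0 of the 10 higher (1 at an unadjusted p under 0.05) and 2 of the 51 higher and 2 lower. When 1 library was left out, 0 to 1 of the 10 were higher and 2 to 3 lower, and 2 to 4 of the 51 were higher and 3 to 5 lower. Over the same omissions PRI2 ranged from -0.153 to 0.0415, RFA2 from -0.0926 to 0.118, RFA3 from -0.126 to 0.186 and CDC45 from -0.0392 to 0.214, and the share difference (depleted minus control, main 0.00451 percentage points) from 0.00268 to 0.00697. The cause of these shifts was not tested. Same-numbered libraries did not deviate together (correlations of -0.0679, -0.00526 and 0.0717), so the numbers were not taken to pair libraries. With a replicate block 1 of the 10 was higher and 3 were lower, with POL2 at an adjusted p of 0.0225, and 5 of the 51 were higher and 5 lower. POL30 rested on few reads, at 6 to 57 per library, and the reason for its low counts was not tested.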

Other observations

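The gene next upstream of each of the 10, from R64, was also measured. Of these 10 neighbours 2 were called, both lower. Among all tested genes 28.3% were called, a larger share, and 14.1% were called lower, a somewhat smaller share, so neither count sets the neighbours apart. MET4, the sulfur metabolism activator gene that lies 333 bases upstream of POL1 on the same strand, had a log2 fold change of -0.47 ± 0.16 (SE; edgeR adjusted p = 0.0344). CPS1, a vacuolar carboxypeptidase gene 1207 bases from RFA3 and divergent from it, had -0.50 ± 0.16 (edgeR adjusted p = 0.0209). SEN34, the tRNA splicing endonuclease gene 346 bases from RFA1 and divergent from it, was at 0.16 ± 0.30 and was not called. STU1, upstream of POL12 by 237 bases on the same strand, was at -0.25 ± 0.17 and was not called, with groups that did not overlap.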
